A study of Mus musculus with 4 samples.

Results

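Proteasome genes were taken as the protein-coding genes of the mm9 annotation (GENCODE M1) on autosomes whose symbol begins with Psma, Psmb, Psmc, Psmd, Psme, Psmf or Psmg. The rule found 49 genes among 21281 autosomal coding genes, each symbol being counted once. They lay on 15 chromosomes, with 10 of them on chromosome 11. RIF1 occupancy was measured by chromatin immunoprecipitation and sequencing (ChIP-seq) in primary mouse B cells, taken from the spleen, activated in culture with the bacterial lipid LPS at 5 µg/ml plus the cytokine IL-4 at 5 ng/ml, and collected at 72 h. In Rif1FH/FH cells (2 samples) the endogenous RIF1 protein carries Flag and HA epitopes at its N terminus, and precipitation used an anti-HA antibody. C57BL/6 (Rif1WT/WT) cells (2 samples), which received the same treatment, have no tag and were the negative control. The mouse lines were kept on a C57BL/6 background and animals of both sexes were used, while age and any pooling of animals were not given in the sources used here.

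The analysed list holds 16332 intervals that the authors retained from both Rif1FH replicates, as positions without a score. Narrow intervals, termed peaks here, numbered 16043 and were at most 14827 bp wide. Wide intervals, taken to be RIF1-associated domains (RADs), numbered 289 and were at least 90000 bp wide. The authors left out peaks that overlapped a RAD, and no listed peak touched a wide interval. A gene wholly inside a wide interval therefore cannot have a peak in this list, whatever the signal at its start, and its distance to the nearest peak is set by that step. Read depth, the spread between replicates and the signal in Rif1WT cells are unknown from positions alone. A gene without an interval is therefore one without a listed interval, and the percentages below carry counting error only. The list holds no expression values, so the B cell identity of the samples could not be checked against marker genes.

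The proteasome degrades proteins that have been tagged with ubiquitin. Its barrel-shaped core particle (20S) is built of alpha and beta rings and holds the proteolytic sites, while the regulatory particle (19S) recognises ubiquitin, unfolds the substrate by its ATPases and feeds it into the core. Cells of the immune system exchange the catalytic beta subunits for inducible forms, which gives the immunoproteasome and alters the peptides that are made for presentation on MHC class I molecules. Assembly chaperones, activators and an inhibitor complete the family. RIF1 is known as a regulator of replication timing, and the question addressed here was where it was found relative to these genes.

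At their 5′ ends, 27 of the 49 proteasome genes had a RIF1 peak within 1 kb (55.1%, 95% Wilson interval 41.3 to 68.1%). The same was true of 32.2% of all autosomal coding genes. A further 2 genes, Psma6 and Psmf1, had a peak only inside the gene, so that 29 genes (59.2%) had a peak over the gene or its 5′ end, against 37.8% of coding genes. Another 14 genes lay in a wide interval (28.6%, 17.8 to 42.4%), a share near the 23.6% of coding genes. The remaining 6 genes had neither, as did 39.0% of coding genes. A peak only inside the gene was found in 5.54% of coding genes.

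Since peaks inside wide intervals had been removed, the share was also taken over genes outside them. Of 35 such proteasome genes, 27 had a peak at the 5′ end (77.1%, 61.0 to 87.9%), against 41.9% of 16250 coding genes. No test was made of this difference, and the intervals treat genes as independent although neighbouring genes can share a RIF1 interval. Promoters of coding genes with a peak at the 5′ end had a median GC content of 61.0%. It was 56.7% in wide intervals, 54.3% with a peak only in the gene and 48.3% with neither. Proteasome promoters had a median of 56.3%, near the 55.3% of all coding promoters. The ratio of observed to expected CpG (C followed by G) had medians of 0.78 at coding genes with a peak and 0.25 with neither. It was 0.76 in proteasome promoters and 0.55 in all coding promoters. In genes outside wide intervals whose promoter GC content lay between 51.3 and 62.2%, the quartiles of the proteasome genes there, 52.0% of 5137 coding genes had a peak, among them 15 of 18 proteasome genes. CpG content was not matched, and the part of GC or CpG content in the difference was not tested further.

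**Figure D1:**
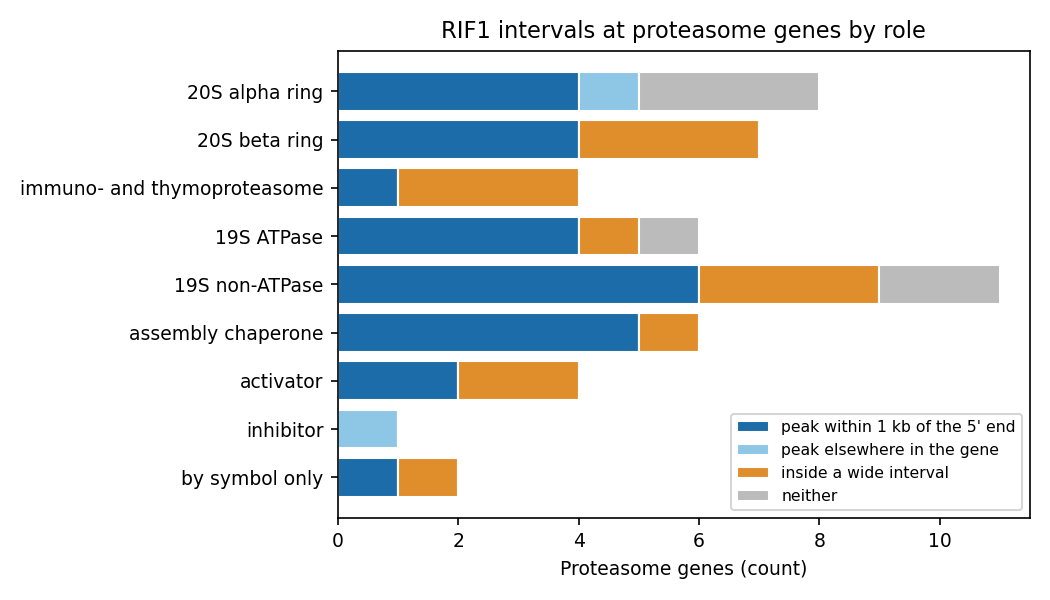
Number of proteasome genes by role (bars, x axis, count of genes), coloured by the kind of RIF1 interval: a peak within 1 kb of the 5′ end, a peak elsewhere in the gene, a wide interval, or neither. Of 49 genes, 27 had a peak at the 5′ end, 14 lay in a wide interval and 6 had neither, and 3 of the latter were alpha ring genes. Of all coding genes, 39.0% had neither.

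To show where on the DNA these calls fall, the bases before the 5′ end are given for 8 genes, read 5′ to 3′ along the gene on build mm9. They are the 3 genes with the narrowest peaks at their 5′ end (Psmc3, Psmd2 and Psmd12) and the inducible Psmb10, also with a peak. Added to these are Psmb8 and the constitutive subunit it replaces, Psmb5, both in wide intervals, and Psmd4 and Psmd11 with neither. Capitals mark exact matches, on either strand, to CCAAT (the NF-Y box), TGACNNNGC (the core of the antioxidant response element), CCGGAAG (the ETS core) or TATAA. Sequences run for 250 bases up to the 5′ end, except in Psmc3, where 75 bases separate it from an exon of the neighbouring lincRNA gene Gm13778.

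Psmc3, chr2:90894091-90894165 (plus strand): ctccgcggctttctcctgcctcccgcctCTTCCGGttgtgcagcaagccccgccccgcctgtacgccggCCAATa
Psmd2, chr16:20651475-20651724 (plus strand): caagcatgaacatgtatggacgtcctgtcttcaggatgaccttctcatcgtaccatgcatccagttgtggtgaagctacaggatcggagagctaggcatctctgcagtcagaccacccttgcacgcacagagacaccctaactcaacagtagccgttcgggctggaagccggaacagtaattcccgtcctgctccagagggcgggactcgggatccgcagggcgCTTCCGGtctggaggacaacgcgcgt
Psmd12, chr11:107340548-107340797 (plus strand): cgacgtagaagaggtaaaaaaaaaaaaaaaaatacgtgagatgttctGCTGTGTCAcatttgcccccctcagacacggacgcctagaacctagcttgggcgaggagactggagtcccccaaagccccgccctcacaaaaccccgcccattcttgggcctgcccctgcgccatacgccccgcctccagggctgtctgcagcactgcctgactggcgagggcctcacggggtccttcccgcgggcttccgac
Psmb10, chr8:108462293-108462542 (minus strand): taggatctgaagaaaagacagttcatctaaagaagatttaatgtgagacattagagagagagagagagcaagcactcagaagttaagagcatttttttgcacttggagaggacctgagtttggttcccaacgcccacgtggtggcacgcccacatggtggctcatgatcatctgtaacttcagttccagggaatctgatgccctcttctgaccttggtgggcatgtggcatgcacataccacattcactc
Psmb8, chr17:34334416-34334665 (plus strand): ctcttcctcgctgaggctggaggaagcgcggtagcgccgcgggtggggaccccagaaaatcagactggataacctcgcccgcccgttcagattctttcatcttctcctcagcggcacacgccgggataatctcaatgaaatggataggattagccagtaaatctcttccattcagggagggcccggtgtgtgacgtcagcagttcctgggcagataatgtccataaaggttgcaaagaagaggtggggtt
Psmb5, chr14:55236852-55237101 (minus strand): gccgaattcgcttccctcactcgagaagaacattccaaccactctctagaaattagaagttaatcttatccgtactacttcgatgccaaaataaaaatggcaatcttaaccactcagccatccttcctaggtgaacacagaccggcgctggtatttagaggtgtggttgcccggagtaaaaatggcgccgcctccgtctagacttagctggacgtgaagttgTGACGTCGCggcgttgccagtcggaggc
Psmd4, chr3:94846537-94846786 (minus strand): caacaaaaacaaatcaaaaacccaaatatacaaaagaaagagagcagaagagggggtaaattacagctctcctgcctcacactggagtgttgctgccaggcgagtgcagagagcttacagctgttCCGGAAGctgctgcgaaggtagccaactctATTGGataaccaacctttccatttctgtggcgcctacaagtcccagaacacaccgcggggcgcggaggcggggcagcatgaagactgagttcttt
Psmd11, chr11:80241867-80242116 (plus strand): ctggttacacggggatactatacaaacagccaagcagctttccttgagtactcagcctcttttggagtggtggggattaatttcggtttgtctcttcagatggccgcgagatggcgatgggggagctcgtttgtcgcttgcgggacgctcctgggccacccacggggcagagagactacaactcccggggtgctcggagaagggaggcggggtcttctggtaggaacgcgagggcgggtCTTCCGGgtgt

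The promoters shown for Psmc3, Psmd2, Psmd12 and Psmb10 lay wholly or in large part under their peak. The Psmc3 peak reached from -345 to 260 bp of the 5′ end and that of Psmd2 from -281 to 372 bp. That of Psmd12 reached from -210 to 507 bp and that of Psmb10 from -615 to 1772 bp. All bases shown for Psmc3, Psmd2 and Psmb10 were therefore inside the peak, as were those of Psmd12 apart from the most distant ones. Among the printed bases, Psmc3 and Psmd4 held both the ETS core and CCAAT, Psmd2 and Psmd11 held the ETS core, and Psmd12 and Psmb5 held TGACNNNGC. The ETS core of Psmd12 lay in the part of its 300-base window not printed here, and Psmb8 and Psmb10 held none of the 4 motifs. For Psmd4 and Psmd11 the nearest peak began 25.3 and 44.8 kb from the 5′ end.

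The alpha ring of the core particle gates the entry of substrates. Of its 8 genes, 4 had a peak at the 5′ end, 1 had peaks in the gene only and 3 had neither. None lay in a wide interval. The peak of Psma1 was 1147 bp wide with its midpoint at -23 bp, where negative positions lie before the 5′ end. The peak of Psma2 was 973 bp wide with its midpoint at -10 bp, and that of Psma4 was 1256 bp wide with its midpoint at 85 bp. These 3 peaks were thus centred on the start to within 100 bp. The Psma5 peak was wider, at 2509 bp, and reached from -1405 to 1103 bp.

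Psma6 had a pair of peaks in introns, 1066 and 2154 bp wide, with midpoints 5.51 and 8.19 kb after the annotated 5′ end. RefSeq gives a second start of Psma6 at 14603 bp after the annotated one, and neither start had a peak within 1 kb. Psma3, Psma7 and Psma8 had neither kind of interval, with the nearest peak 139, 16.4 and 20.8 kb from the 5′ end. Psma8 encodes an alpha subunit known from the testis, whereas Psma3 and Psma7 encode subunits of the 20S particle found in most cells. Absence of a peak was therefore not limited to the tissue-specific form.

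Of the 7 constitutive beta ring genes, 4 had a peak at the 5′ end (Psmb1, Psmb2, Psmb4 and Psmb7) and 3 lay in wide intervals (Psmb3, Psmb5 and Psmb6). The Psmb7 peak was the narrowest of these, at 896 bp, with its midpoint at 21 bp. The other three were wider and reached further upstream. The Psmb1 peak measured 2589 bp with its midpoint at -890 bp, the farthest from the start of all 27. It also met the window around the 5′ end of Tbp, the neighbouring gene for the TATA-binding protein. Those of Psmb2 and Psmb4 were 1738 and 2151 bp wide, with midpoints at -486 and -602 bp.

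Among the inducible catalytic subunits, Psmb10 was the only gene with a peak. The peak (chr8:108460520-108462907, 2388 bp) reached from -615 to 1772 bp, so that it covered 1773 bp of a gene of 2665 bp, and its midpoint lay in an intron. Psmb8 and Psmb9 lay together in a wide interval of 4842 kb (chr17:31626001-36468000), 2130 and 2140 kb from its nearer edge. The nearest listed peak was 2640 and 2650 kb away, peaks inside the interval having been removed. Psmb11, which encodes the catalytic subunit of the thymus form, lay in a wide interval of 460 kb on chromosome 14.

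When each inducible subunit was set beside the constitutive subunit it replaces, a comparison chosen after the values were seen, the kind of interval was the same in all 3 cases. Psmb5 and its replacement Psmb8 were both in wide intervals, as were Psmb6 and its replacement Psmb9, while Psmb7 and its replacement Psmb10 both had a peak at the 5′ end. The genes of each couple lie on different chromosomes and thus in different intervals. Psmb8 and Psmb9, however, lay in the same wide interval, so the couples they belong to are not separate observations. With 3 couples the match is a description only.

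The 19S ATPases form the ring that unfolds substrates. Of these 6 genes, 4 had a peak at the 5′ end, Psmc4 lay in a wide interval and Psmc6 had neither. Widths differed most within this group. Psmc2 had the widest peak of all 27 (2826 bp, midpoint at 481 bp), and Psmc1 the next (2591 bp, midpoint at -608 bp). Psmc3 had the narrowest of all (606 bp, midpoint at -43 bp), and Psmc5 one of 746 bp that reached only 60 bp into the gene. The nearest peak to the start of Psmc6 was 57.1 kb away.

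Of 11 genes for non-ATPase subunits of the 19S particle, which include ubiquitin receptors, scaffolds and a deubiquitinase, 6 had a peak at the 5′ end. Psmd14, the gene for the deubiquitinase of the lid, had a peak of 987 bp with its midpoint at 25 bp. The peak of Psmd6 was centred 3 bp from the start and was 1436 bp wide, and that of Psmd7 measured 2053 bp with its midpoint at 155 bp. Psmd2, a scaffold of the base, had a peak of 654 bp with its midpoint at 45 bp, and Psmd12, of the lid, one of 718 bp with its midpoint at 148 bp. Both were narrower than the lower quartile of all peaks in the list (916 bp).

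Psmd1, the other large scaffold subunit, had a peak of 1613 bp at the 5′ end (midpoint at -254 bp) and another of 1158 bp in an intron 90.1 kb further on. The latter met the window around the 5′ end of Armc9, so that it cannot be assigned to Psmd1 alone. Psmd3, Psmd8 and Psmd13 lay in wide intervals. Psmd4, which encodes a ubiquitin receptor, and Psmd11 had neither kind of interval.

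Among genes for assembly chaperones, 5 of 6 had a peak at the 5′ end, and the remaining one, Psmd9, lay in a wide interval. The 4 genes Psmg1 to Psmg4, whose products guide formation of the 20S core, each had a peak, of 1059, 1745, 855 and 2206 bp. Their midpoints were at 134, -81, 66 and 483 bp. Psmd5, a chaperone of the 19S base, had a peak of 1391 bp with its midpoint at -233 bp.

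Activators cap the core in place of the 19S particle. Psme3, which encodes the nuclear form of the 11S activator, and Psme4 had peaks at the 5′ end, of 2254 and 1445 bp, with midpoints at -347 and -163 bp. Psme1 and Psme2, whose products form the interferon-inducible 11S activator, lay together in a wide interval of 460 kb on chromosome 14 that held 35 coding genes. The nearest listed peak, outside that interval, was 185 and 198 kb from their starts.

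Psmf1 encodes a proteasome inhibitor. Its peak of 2606 bp began 1798 bp after the annotated 5′ end, which made it the gene just outside the limit of 1 kb. The 27 genes inside the limit all had a peak that covered the 5′ end itself, so that no gene lay close to the limit on the inner side. RefSeq places the start of Psmf1 at 2876 bp after the annotated end, inside this peak, and with the starts of all annotated transcripts Psmf1 joined the genes with a peak at the 5′ end.

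A pair of genes met the rule by symbol but encode no proteasome part as far as their names tell. Psmc3ip, which encodes a recombination factor, had a peak of 1763 bp with its midpoint at 25 bp. Psme2b-ps, annotated as coding despite its pseudogene name, lay in a wide interval of 340 kb. Without both, 26 of 47 genes had a peak at the 5′ end.

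The 27 peaks at 5′ ends were compared with the peaks of all coding genes. Their median width was 1445 bp (quartiles 980 and 2178.5 bp, range 606 to 2826 bp), against 1602 bp (1141 and 2188 bp) at 6861 coding genes with a peak. The median midpoint was at -10 bp (quartiles -243.5 and 75.5 bp), against 40 bp (-236 and 315 bp). Peaks of proteasome genes thus had a size common in the list and were centred near the start. All 27 covered the 5′ end, against 86.8% of coding genes with a peak, and 11 (40.7%) had their midpoint within 100 bp of it, against 20.9%. The midpoint lay before the 5′ end in 14 (51.9%), near the 45.7% of coding genes with a peak. It lay in an exon in 10 and in an intron in 3, and shares of coding genes are not given for these.

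**Figure D2:**
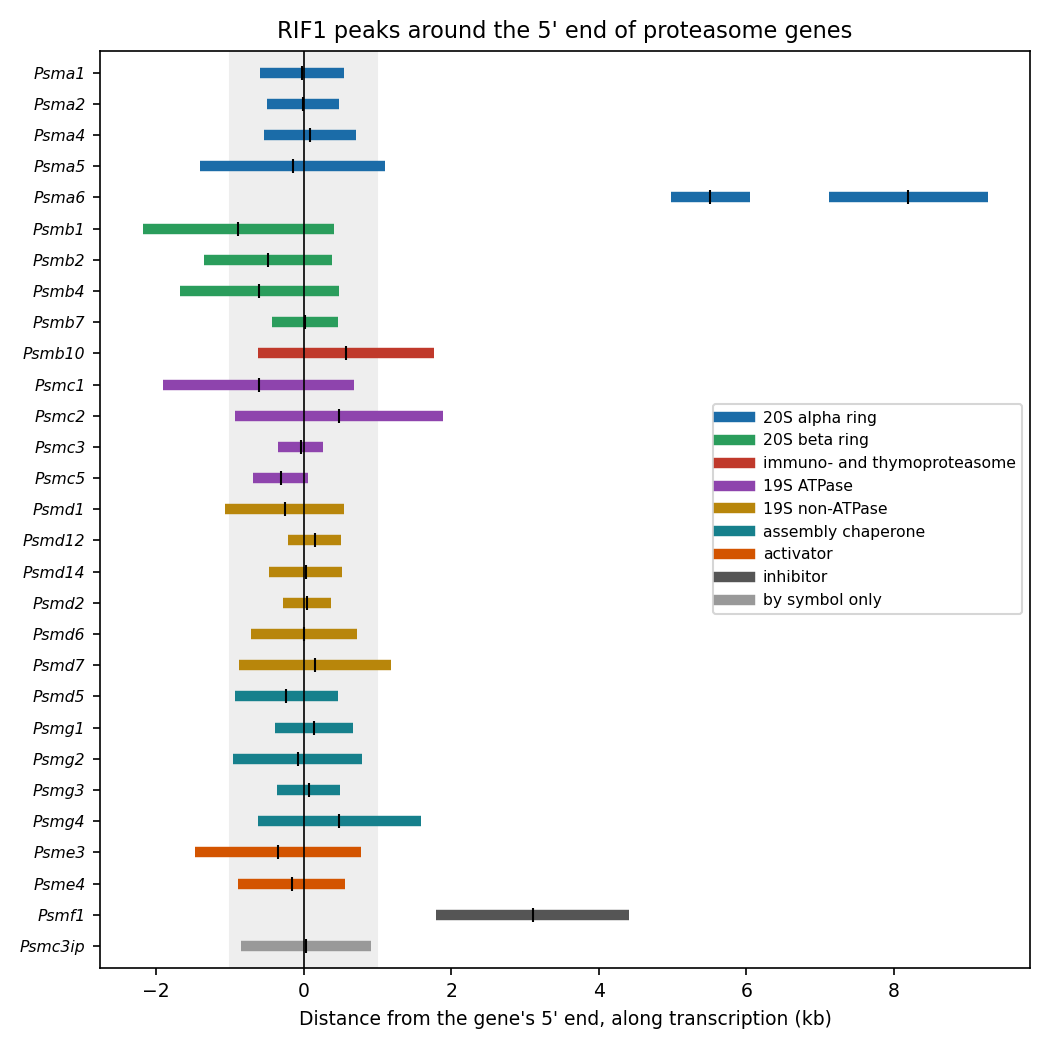
RIF1 peaks (bars) of 29 proteasome genes by distance from the gene's 5′ end in kb, coloured by role, with a tick at the midpoint and the window of 1 kb on each side shaded. The 27 peaks at 5′ ends cover position 0, those of Psma6 and Psmf1 lie to the right of the window, and the second Psmd1 peak at 90.1 kb is not drawn.

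The share of genes with a peak hardly depended on the size of the window. With 0.1 kb on each side it had to remain at 27 genes, since all 27 peaks cover the 5′ end, and with 10 kb it was 29 (59.2%). Over the same range the share of coding genes rose from 29.0 to 38.4%. Outside wide intervals the corresponding shares were 77.1 and 82.9% for proteasome genes and 37.7 and 50.0% for coding genes.

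**Figure D3:**
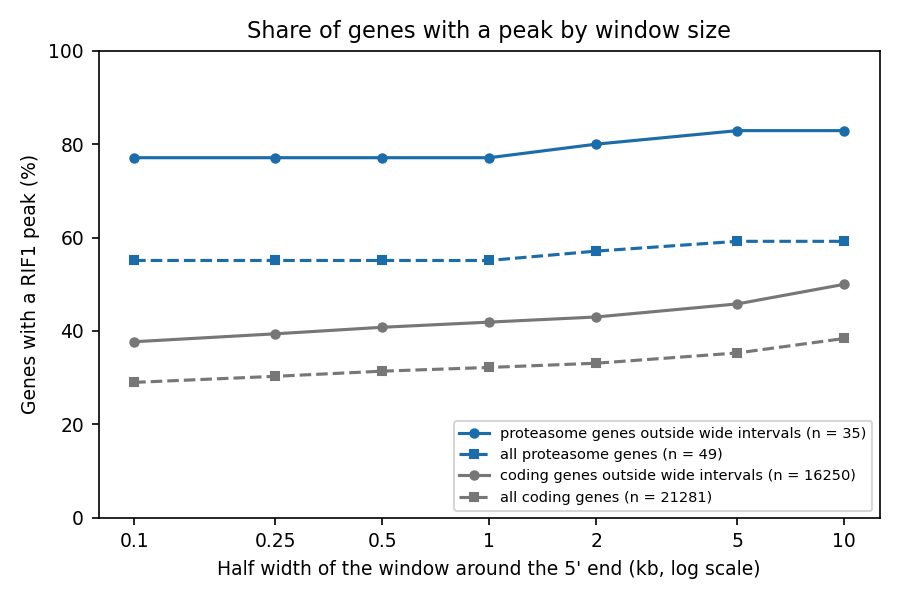
Share of genes with a RIF1 peak (y axis, percent) by the distance allowed on each side of the 5′ end (x axis, kb, log scale), for proteasome genes and all coding genes, with and without genes in wide intervals. At 1 kb the values were 77.1 and 55.1% for proteasome genes and 41.9 and 32.2% for coding genes.

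Some peaks were shared with other genes. Of the 27 peaks, 6 also met the window around the 5′ end of another coding gene and 2 that of a noncoding gene, leaving 19 at proteasome genes alone. The share of such peaks over all coding genes is not given here, so these counts are a description only. The coding neighbours were Mrpl32 (with Psma2), AY074887 (Psma4), Tbp (Psmb1), Dnajc2 (Psmc2), Ftsj3 (Psmc5) and Cep76 (Psmg2), and the noncoding ones 1700010K24Rik (Psma5) and Gm13778 (Psmc3). A different measure is the distance between starts, by which Psmb1 has no coding neighbour within 1 kb. Coding genes with another coding 5′ end within 1 kb more often had a peak, in 72.4% of cases outside wide intervals against 37.9% of the rest. Among proteasome genes outside wide intervals the shares were 83.3% of 6 and 75.9% of 29. The part of such neighbours in the share was not tested.

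The 14 genes in wide intervals were spread over 10 intervals of 340 to 4842 kb, with a median of 982 kb against 576 kb for all 289. These medians are not from like sets, because a longer interval is more likely to hold any given gene. All 14 genes lay wholly inside, between 35.9 kb (Psmb11) and 2140 kb (Psmb9) from the nearer edge. Shared intervals make these genes fewer than 14 separate observations. Psmb5 and Psmb11 were in 1 interval of 460 kb (chr14:54820001-55280000), Psme1 and Psme2 in another (chr14:56080001-56540000), Psmb8 and Psmb9 in that on chromosome 17, and Psmc4 and Psmd8 in an interval of 2364 kb (chr7:27756001-30120000). The other intervals held Psmb6 (2008 kb), Psmb3 (1360 kb), Psmd3 (1040 kb), Psmd9 (924 kb), Psmd13 (774 kb) and Psme2b-ps.

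**Figure D4:**
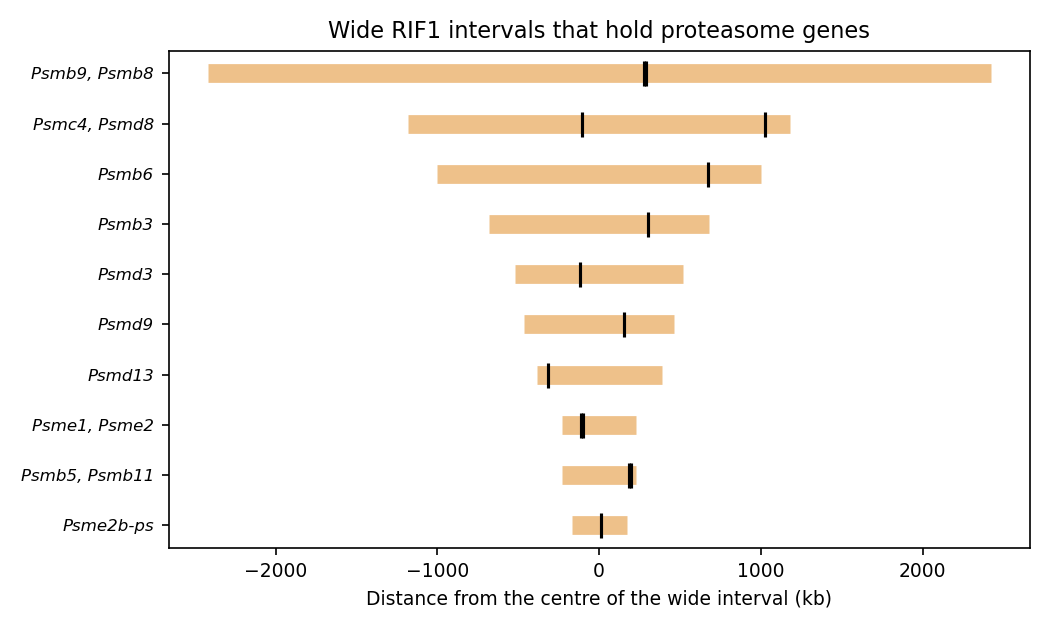
The 10 wide RIF1 intervals that hold proteasome genes (bars), by distance from the centre of the interval in kb, with ticks at the 5′ ends of the named genes. Widths ran from 340 kb (Psme2b-ps) to 4842 kb (Psmb8 and Psmb9), and 4 intervals held 2 proteasome genes each.

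Genes in wide intervals had denser surroundings. Proteasome genes there had a median of 39 other coding 5′ ends within 500 kb on each side, against 13 for those with a peak at the start. Coding genes as a whole showed the same order, with 29 and 11. The proteasome genes were also shorter in wide intervals, with a median of 5.01 kb against 12.6 kb, and this too was seen in coding genes as a whole (11.1 and 28.6 kb). Neither property was therefore particular to proteasome genes.

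Promoter windows (250 bases before to 50 after the 5′ end) were searched for exact motifs of factors known at housekeeping or proteasome promoters. The spelled motifs do not contain each other, and a match is no proof of binding. Windows follow the annotated 5′ ends. The RefSeq starts of Psmb8, Psmb9, Psmd13 and Psme1, all in wide intervals, lie 474, 434, 426 and 371 bp further on, outside these windows. The same holds for Psmd1 (232 bp) and Psma4 (69 bp), which had a peak at the 5′ end, and for Psmf1 (2876 bp). Psma6, Psmc2 and Psme2 have a RefSeq start inside the window and a further one beyond it. The ETS core CCGGAAG was present in 17 of 49 proteasome promoters (34.7%) and in 10.9% of all coding promoters. It occurred in 12 of the 27 with a peak (44.4%), against 18.7% of coding genes with a peak, in 4 of the 6 with neither interval, against 4.86% of such coding genes, and in 1 of the 14 in wide intervals (7.14%), against 11.8%. The motif itself holds a CpG. The ratio of observed to expected CpG had medians of 0.74 in the 6 genes with neither and 0.25 in such coding genes. With a peak the medians were 0.8 and 0.78. CpG content was not matched, and its part in the motif shares was not tested. Among the genes with a peak and the motif were Psmc1, Psmc2 and Psmc3, Psmd2, Psmd6, Psmd7 and Psmd12, and Psme3 and Psme4. Psmc3ip, a gene by symbol only, was another. The only gene in a wide interval with the motif was Psme2b-ps, likewise a gene by symbol only.

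The other motifs stood near their background. CCAAT was found in 19 proteasome promoters (38.8%), against 37.6% of all. TGACNNNGC, the core bound by the proteasome regulator NFE2L1 and its relative NFE2L2, was found in 7 (14.3%), against 12.7%. These were Psmb2, Psmd7 and Psmd12 with a peak, Psmb5, Psmb6 and Psmd9 in wide intervals, and Psmc6 with neither. TATAA was found in 10 (20.4%), against 23.5%.

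**Figure D5:**
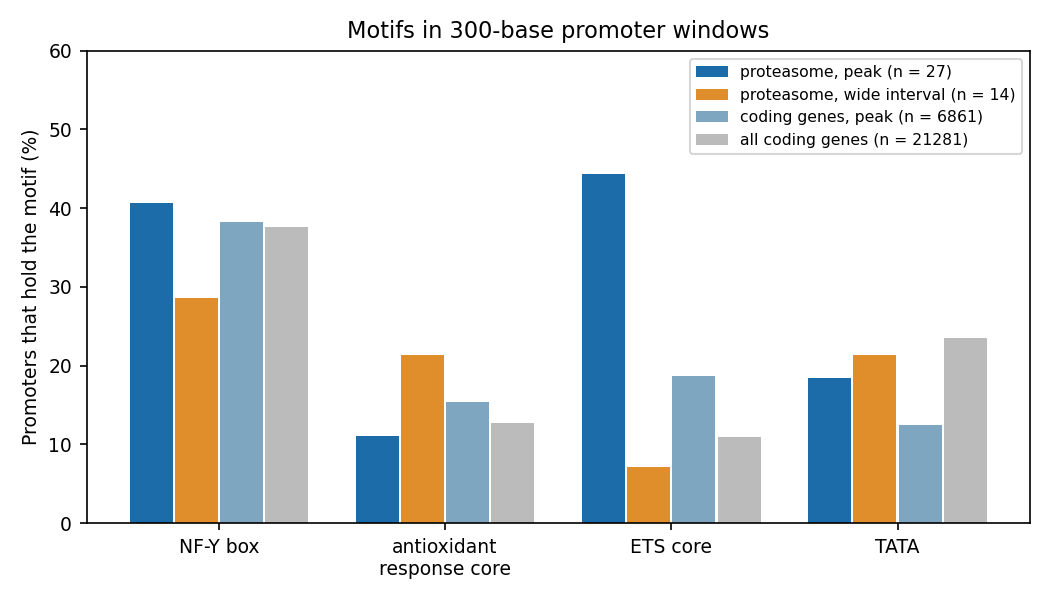
Share of promoter windows (y axis, percent) that hold each motif on either strand, for proteasome genes with a peak or in a wide interval and for coding genes with a peak or in all. The ETS core stood at 44.4% in proteasome genes with a peak and 18.7% in coding genes with a peak, whereas the NF-Y box stood at 40.7 and 38.2%.

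Genes that act with the proteasome but carry other symbols were taken from a list of 36, of which 35 were in the annotation. Of these, 17 (48.6%) had a peak at the 5′ end, against 32.2% of all coding genes, and 13 lay in a wide interval, against 23.6%. A further 2 had a peak in the gene only and 3 had neither, against 5.54 and 39.0% of all coding genes. No test was made for this list or its groups, and the same percentages of all coding genes apply to the groups below. Peaks at the start were found in 8 of 11 genes for associated proteins, among them the ubiquitin receptor gene Adrm1 (1314 bp, midpoint at -541 bp), the small 19S subunit gene Shfm1 (1868 bp, -7 bp) and the deubiquitinase gene Uchl5 (1833 bp, 112 bp). The core assembly factor Pomp had a peak of 1876 bp with its midpoint at 209 bp.

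Regulators of proteasome transcription were split. Nfe2l2 had a peak of 3999 bp, and Nfe2l1 lay in a wide interval, the same one as Psmb3. In all, 4 of 9 genes of that list had a peak at the 5′ end.

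Genes of peptide loading, the step that follows the immunoproteasome in antigen presentation, lay in wide intervals in 7 of 9 cases (Tap1, Tap2, Tapbp, Tapbpl, Erap1, B2m and Calr), against 23.6% of all coding genes, and Canx and Pdia3 had peaks at the 5′ end, of 1537 and 1360 bp. Tap1, Tap2 and Tapbp shared the interval on chromosome 17 with Psmb8 and Psmb9, and Tap1 starts 211 bp from Psmb9. These genes are therefore not independent of each other.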

How the data were processed

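RIF1 ChIP-seq was described for 2 Rif1FH and 2 Rif1WT samples. Chromatin was sheared to 200 to 600 bp. As described in the study's methods and processing notes, the authors trimmed reads with Trim Galore (0.6.4), aligned them to mm9 with Bowtie (1.0.0), keeping unique alignments, called peaks per replicate with MACS2 (2.2.6) and broad domains with EDD, merged them with bedtools (2.27.1) and kept those found in both replicates. Peaks that overlapped a RAD were then discarded. The deposited list gives positions only. The calling threshold, and whether the Rif1WT negative control entered peak calling, were not given in the sources used here. Unique alignment leaves repeated sequence without intervals. The antibody label names anti-CD43 beads, which serve to isolate B cells, whereas the extraction protocol names anti-HA for precipitation, and the latter was followed.

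Intervals were split at 50 kb. A gene had a peak at the 5′ end if a peak overlapped, by at least 1 bp, the window of 1 kb to either side of its annotated start. The 51 gene records of the family were reduced to 49 symbols by taking the longest. All genes meeting the symbol rule were accounted for. By rule, values were given for the small role groups, genes in wide intervals or with neither, the 5 widest and 5 most distant peaks, and genes with several or shared peaks. Pairing of catalytic subunits and the remaining named peaks were added after the values were seen. RefSeq starts (GRCm38.p6) were placed on mm9 by exact match of 300 bases, which placed 40 of the 49 genes. Shares carry 95% Wilson intervals. No test over samples was possible, as the list pools both replicates. The gene lists and comparisons were chosen with earlier results of these data known. Overlap counting was tested on simulated data, where 5 of 5 sets equalled direct counting. Computation used Python 3.11.15, numpy 2.4.6, pandas 2.3.3, scipy 1.17.1, pysam 0.24.0 and matplotlib 3.10.9. Alternatives covered window size, transcript and RefSeq starts, peak width, merging, overlap and the choice of genes. Some genes of the list of genes acting with the proteasome are not reported here by name.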

Additional observations from a re-analysis of the deposited data

How the results depend on the processing

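The number of proteasome genes with a peak at the 5′ end, 27 of 49, stayed between 26 and 29 under other windows, any transcript start, merging, midpoints, genes outside wide intervals, the X chromosome, every gene record (chosen after the data were seen) and genes by symbol. With peaks at or above the median width it was 16, and with peaks and wide intervals pooled it was 41. The first keeps only wider peaks by construction, and the second adds the 14 genes in wide intervals. With RefSeq starts, an alternative chosen after the data were seen, it was 22 of the 40 genes placed. Smaller windows could not change the count, since all 27 peaks cover the 5′ end. Leaving out genes in wide intervals could not either, since a gene wholly inside one cannot have a listed peak. The unchanged count in these settings is therefore no sign of stability.

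The share of all coding genes with a peak, 32.2%, moved beyond its confidence interval with windows of 0.1 kb (29.0%), 0.5 kb (31.4%), 2 kb (33.1%) and 5 kb (35.3%), any transcript start (34.3%), wider peaks (20.8%), peak midpoints in the window (30.1%), the whole list (55.4%), genes outside wide intervals (41.9%), those of them with similar GC content (52.0%, chosen after the data were seen) and RefSeq starts (36.0%, likewise). The number of proteasome genes with a peak over the gene or its 5′ end was 29. It was 18 with wider peaks and 43 with peaks and wide intervals pooled.

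The count in wide intervals stayed within 1.5 times its value, the median midpoint lay between -19 and 23 bp, and the median width between 1445 and 1529 bp. Lengthening wide intervals by 50 kb added Psmd1 and Psmg1, for 16 genes. No paired analysis was possible because the deposited positions combine both Rif1FH replicates and give none for Rif1WT. For the same reason, results without a replicate were not computed. Depth is unknown.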

Other observations

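Psmd10 (ENSMUSG00000031429.8), which encodes a chaperone of the 19S base, lies on the X chromosome (chrX:137482968-137491267) and was outside the rule. It had neither a peak nor a wide interval, and the nearest peak, 364 bp wide, was 292 kb from its 5′ end. Counting it gives 27 of 50 genes with a peak at the 5′ end.

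The 10 proteasome genes on chromosome 11 were divided among the kinds of interval, with 5 that had a peak at the 5′ end (Psmc3ip, Psmc5, Psmd12, Psme3 and Psme4), 4 in separate wide intervals (Psmb3, Psmb6, Psmd3 and Psme2b-ps) and Psmd11 with neither. On chromosome 14, 4 of 6 lay in wide intervals (Psmb5, Psmb11, Psme1 and Psme2), in 2 intervals. Shares of all coding genes on these chromosomes are not given here, so the counts by chromosome are a description only.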
